A study of Homo sapiens with 6 samples.

Results

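The unfolded protein and integrated stress response was followed through 33 genes of these pathways, matched by symbol to a list of members. All 33 passed the filter of a mean count of at least 10, out of 15126 analysed genes and 60498 in the table. RNA was sequenced from SKOV3, an established ovarian cancer cell line whose parent cells carry a WT and a HAQ allele of STING1 (WT/HAQ). HAQ is a common haplotype of STING1 with 3 linked amino acid changes. Dual CRISPR/Cas9 editing gave a clone with the WT allele alone (WT/-) and a clone with the HAQ allele alone (HAQ/-), and each edited line is 1 clone. Each of the 3 lines gave 1 control library and 1 library after cGAMP, the cyclic dinucleotide that binds STING1, at 10 μg/mL for 30 min with 4 h of rest. cGAMP was delivered through digitonin-permeabilized membranes, and the study's methods do not say whether control cells were permeabilized, so handling and cGAMP cannot be told apart. Genotype, clone and editing history cannot be told apart between lines either.

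When misfolded proteins collect in the endoplasmic reticulum (ER), the membrane sensors ERN1 (IRE1), EIF2AK3 (PERK) and ATF6 start the unfolded protein response, in which the transcription factors XBP1 and ATF6 raise ER chaperones and genes of ER-associated degradation (ERAD). PERK also phosphorylates the translation factor eIF2, a step it shares with other stress kinases and which defines the integrated stress response: general translation slows while ATF4 protein is made and acts on genes of amino acid supply and of stress-induced death. ATF4 activity is set largely by translation and XBP1 activity by splicing of its mRNA, and gene counts show neither.

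Total counts without and with cGAMP came to 17608467 and 16719799 in WT/HAQ cells, 17060710 and 12444822 in the WT/- clone and 17022809 and 13686498 in the HAQ/- clone. Levels are normalized counts, scaled by edgeR's TMM factors. Folds compare 2 libraries, are given as log2 values, and carry in brackets a 95% Wilson interval on the counts. No condition has a replicate, so the intervals cover counting error only and the spread between cultures was not measured. Between 2 libraries a gene is called higher or lower at 1.5-fold or more, which is not a test. Above and below describe values that may lie within 1.5-fold. Tests used the edgeR quasi-likelihood F test on all 6 libraries with line and treatment as terms, which leaves 2 residual degrees of freedom, and Benjamini-Hochberg adjustment over the 15126 genes. In these tests the log2 fold change is followed by its standard error after the sign ±, and the fit takes the cGAMP fold to be the same in every line. Scaling by total counts only, in place of TMM, moved the median log2 fold of all genes by 0.10 between the HAQ/- and WT/- control libraries and by less in the other comparisons of 2 libraries.

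The cells carried epithelial markers in all 6 libraries, with 8283 to 16551 counts of KRT8, 2914 to 6466 of KRT18, 2547 to 13198 of KRT7 and 34787 to 79376 of ERBB2. CDH1 had 165 to 355 and EPCAM 340 to 833 counts. Some of these markers varied with line or treatment. KRT19 had 5629.5 normalized counts without and 3605 with cGAMP in the parent, 364 and 369 in the WT/- clone, and 414 and 343 in HAQ/-, so both clones lay far below the parent. The Müllerian factor PAX8 had 6751 and 1966 in the parent, 9391 and 4969.8 in the WT/- clone, and 4613 and 3276 in HAQ/-, below control with cGAMP in each line. Summed, the 10 epithelial and ovarian markers, of which ERBB2 was the most abundant, had 113136 and 93187 in the parent, 88295 and 72859 in the WT/- clone, and 92092 and 87678 in HAQ/-. Any part of these shifts in the results for the members was not tested. The ovarian cancer markers MUC16 (1 to 72 counts) and WT1 (2 to 25) were near absent. Of the leukocyte markers, PTPRC had 0 to 3 counts, CD3E 0 to 2 and CD14 0 to 4. Of the stromal markers, PECAM1 had 7 to 19 and VWF 2 to 13 counts, whereas COL1A1 had 839 to 1123 and DCN 143 to 238. STING1, the edited gene, had 669.1 normalized counts without and 1780.3 with cGAMP in WT/HAQ, 353 and 553 in the WT/- clone, and 213 and 403 in HAQ/-.

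Per kb of the canonical transcript, the members spanned a wide range of median levels over the 6 libraries. HSPA5 (BiP), the main HSP70 chaperone of the ER, had the highest median at 13638.3 normalized counts per kb, followed by the HSP90 family chaperone HSP90B1 at 13204 and the lectin chaperone CALR at 10374. In the WT/HAQ control library HSP90B1, at 12859.5, was just above HSPA5, at 12825.9. ATF4 had a median of 4317. PPP1R15A (GADD34), which brings protein phosphatase 1 to eIF2, has no one place in this order, since it ran from 1067 in HAQ/- with cGAMP to 15873 in WT/- with cGAMP, where it exceeded HSPA5 at 14351.5. The lowest levels were those of ERN1 at 63.8, of CHAC1, an enzyme that breaks down glutathione, at 29.3 and of the lipoprotein receptor VLDLR at 25.2. The 14 chaperones together made up 0.921% of the counts in WT/HAQ control cells and 1.08% in HAQ/- cells with cGAMP, the ends of their range over the 6 libraries.

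The promoters of the members were searched for elements named for these pathways. The members were listed as genes of the same pathways, so matches are a description and not independent of the choice of genes. RefSeq windows of 300 bases around the gene start, on GRCh38.p14, were held for 32 of the 33 members, all but PDIA3, and were searched on both strands. These members had 44 windows, and a member was counted once if any of its windows matched. The shares given beside them are of windows, so the units differ. The ER stress response element, CCAAT and CCACG with 9 bases between them, was present in 27 of 35116 windows of this length (0.0769%). It was present in 7 members, XBP1 and 6 of the 13 chaperones with a window, and each copy contains the shorter CCACG, which alone is in 38.1% of windows and in 24 members. TGATGNAA, the letters used for the C/EBP-ATF response element, was in 3.62% of windows and in ASNS, CHAC1 and HERPUD1. TGACGTGG, the letters used for the unfolded protein response element, was in 0.729% of windows and in HYOU1. The copies of the ER stress response element are shown because XBP1 and these chaperones share it and had unlike cGAMP folds, with capitals for the fixed bases and each copy read on the strand that matches:
CALR: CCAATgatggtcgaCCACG
CANX: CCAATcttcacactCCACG
CRELD2: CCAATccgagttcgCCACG
HSP90B1, further from the start: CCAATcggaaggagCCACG
HSP90B1, nearer the start: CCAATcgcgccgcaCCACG
HSPA5: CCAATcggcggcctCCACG
PDIA6: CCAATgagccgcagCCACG
XBP1: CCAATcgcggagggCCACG

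For HSPA5, XBP1 and ASNS the window that holds the matched element is shown whole, since these genes carry the contrasts described for cGAMP and for the lines. All are on the minus strand and are written from 5′ to 3′ on it. HSPA5 is shown at chr9:125241294-125241593 and XBP1 at chr22:28800520-28800819, with the ER stress response element in capitals from base -66 to -48 and from base -52 to -34 relative to the gene start. ASNS is shown at chr7:97872359-97872658, with the fixed bases of the C/EBP-ATF element in capitals, from base -68 to -61. A match describes letters and says nothing of binding:
HSPA5: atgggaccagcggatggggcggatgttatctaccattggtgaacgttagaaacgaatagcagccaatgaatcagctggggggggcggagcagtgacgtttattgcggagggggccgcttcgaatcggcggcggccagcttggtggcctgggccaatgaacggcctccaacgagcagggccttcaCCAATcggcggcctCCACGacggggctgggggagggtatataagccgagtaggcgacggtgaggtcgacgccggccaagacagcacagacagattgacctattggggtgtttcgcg
XBP1: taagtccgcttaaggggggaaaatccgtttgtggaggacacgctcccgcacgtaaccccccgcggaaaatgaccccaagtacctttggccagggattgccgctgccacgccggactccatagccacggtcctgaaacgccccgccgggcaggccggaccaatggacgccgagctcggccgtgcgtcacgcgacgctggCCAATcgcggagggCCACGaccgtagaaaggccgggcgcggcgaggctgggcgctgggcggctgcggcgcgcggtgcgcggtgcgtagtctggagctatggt
ASNS: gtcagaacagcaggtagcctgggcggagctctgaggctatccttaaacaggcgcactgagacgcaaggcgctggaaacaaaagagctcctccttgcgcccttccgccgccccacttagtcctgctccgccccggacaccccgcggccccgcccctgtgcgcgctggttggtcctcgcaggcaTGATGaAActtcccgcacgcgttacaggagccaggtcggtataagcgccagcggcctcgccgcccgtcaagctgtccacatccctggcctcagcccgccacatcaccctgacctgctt

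The first comparison asked how these genes differed between cGAMP and control cells of the same line. XBP1 and PPP1R15A were higher with cGAMP in the lines that carry a WT allele, CEBPB was higher in WT/HAQ and SEL1L in WT/-. In HAQ/- XBP1 was also above control, at a log2 fold of 0.57, just within 1.5-fold. PPP1R15A was lower in HAQ/-. ATF4, DDIT3 and the sensor EIF2AK3 were lower in WT/HAQ and HAQ/- and within 1.5-fold of control in WT/-. SESN2 was lower in WT/HAQ and DDIT4 in WT/-. The 14 ER chaperones stayed within 1.5-fold of control in each line. Differences between the lines in these folds were not tested.

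XBP1 (ENSG00000100219, chr22:28794555-28800597) encodes the transcription factor that ERN1 activates by splicing. It had 3210.3 normalized counts without and 13822 with cGAMP in WT/HAQ, 3628 and 10881 in the WT/- clone, and 2264 and 3356 in HAQ/-. Each cGAMP library was above its control, by less than 1.5-fold in HAQ/-, and the HAQ/- cGAMP library lay below the WT/- control library. The log2 fold was 2.11 [2.05 to 2.16] in WT/HAQ, 1.58 [1.53 to 1.64] in the WT/- clone and 0.57 [0.49 to 0.64] in HAQ/-. Over the lines the log2 fold change was 1.43 ± 0.30 and above 0 in 3 of 3 lines, with an edgeR adjusted p of 0.072. The alternatives gave adjusted p from 1.18e-05 to 0.393.

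CEBPB, a bZIP factor that also pairs with ATF4 and DDIT3, had 1367 normalized counts without and 3201 with cGAMP in WT/HAQ, 2109 and 2978 in the WT/- clone, and 1062 and 1056 in HAQ/-. With cGAMP it was higher in WT/HAQ, above control but within 1.5-fold in WT/-, and nearly the same in HAQ/-. The log2 folds were 1.23 [1.14 to 1.31], 0.50 [0.41 to 0.58] and -0.01 [-0.13 to 0.11]. The edgeR test gave 0.58 ± 0.23 with an adjusted p of 0.206, above control in 2 of 3 lines.

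ATF4, the factor translated when eIF2 is phosphorylated, had 9500.0 normalized counts without and 5297 with cGAMP in WT/HAQ, 7307 and 5953 in the WT/- clone, and 6299.5 and 3908 in HAQ/-. Its target DDIT3 (CHOP, ENSG00000175197, chr12:57516588-57521737), a factor linked to cell death under ER stress, had 892 and 488 in WT/HAQ, 2141 and 1664 in the WT/- clone, and 493 and 268 in HAQ/-. Both transcripts were lower with cGAMP in WT/HAQ and HAQ/-, and in WT/- they were below control but within 1.5-fold. For ATF4 the log2 folds were -0.84 [-0.89 to -0.80] in WT/HAQ, -0.30 [-0.35 to -0.24] in the WT/- clone and -0.69 [-0.75 to -0.63] in HAQ/-. For DDIT3 they were -0.87, -0.36 and -0.88. Neither passed the edgeR test. ATF4 had -0.61 ± 0.12 with an adjusted p of 0.0655, and DDIT3 had -0.69 ± 0.13 with an adjusted p of 0.0594, each below control in 3 of 3 lines.

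PPP1R15A (ENSG00000087074, chr19:48872212-48876059), the stress-induced partner of the eIF2 phosphatase, had 9056 normalized counts without and 18695 with cGAMP in WT/HAQ, 17702 and 37301 in the WT/- clone, and 4061 and 2507 in HAQ/-. It was higher with cGAMP in both lines with a WT allele and lower in HAQ/-, and no HAQ/- value reached the lowest value of the other lines. The log2 folds were 1.05 [1.01 to 1.08], 1.08 [1.05 to 1.10] and -0.70 [-0.77 to -0.62]. With the opposite sign in HAQ/-, the edgeR test over the lines gave 0.50 ± 0.38 and an adjusted p of 0.478, above control in 2 of 3 lines. In a fit without HAQ/- the adjusted p was 7.36e-05, the lowest of a range up to 0.887.

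**Figure D1:**
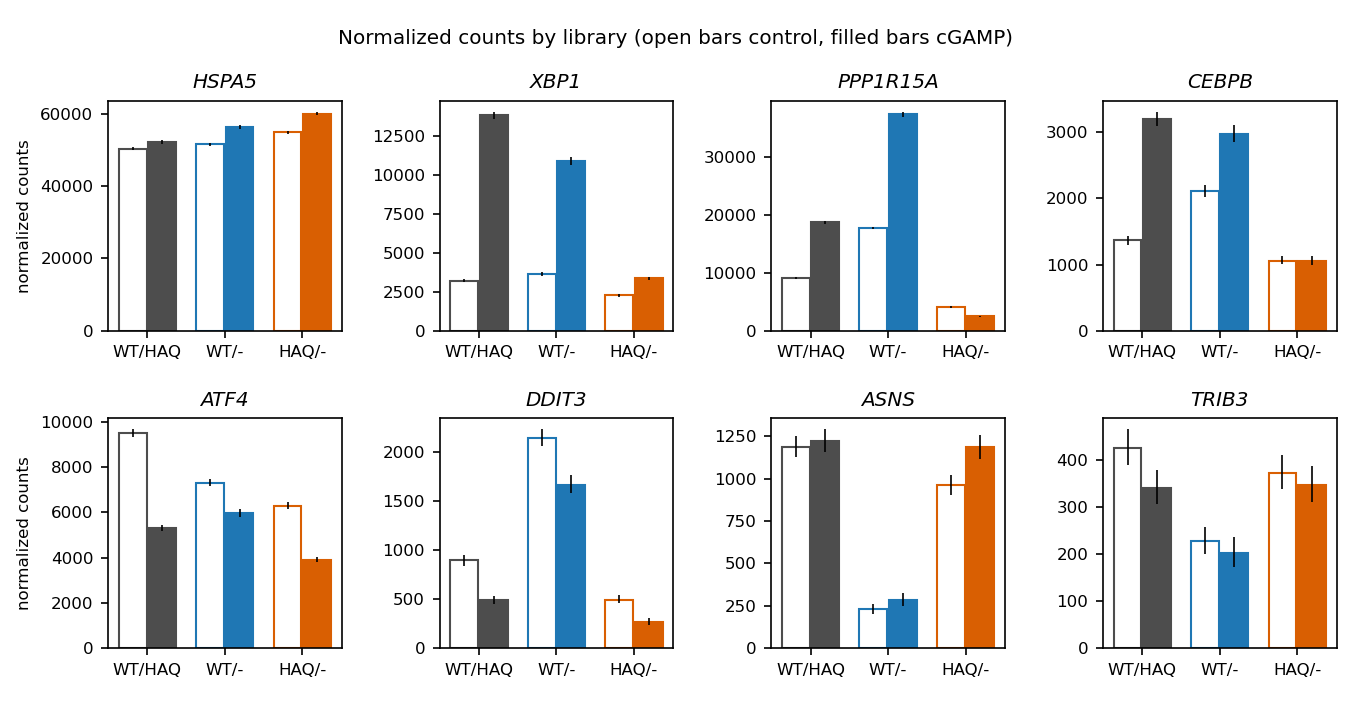
Normalized counts (vertical axis, starting at 0) of 8 members in each library, with open bars for control and filled bars for cGAMP cells of each line. PPP1R15A spans 2507 to 37301 normalized counts over the libraries, whereas HSPA5 spans 50290.4 to 59998.

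Of the sensors, ERN1 was below control within 1.5-fold in each line, EIF2AK3 was lower in WT/HAQ and HAQ/-, and ATF6 was near its control level. ERN1 (ENSG00000178607, chr17:64039080-64130819), the kinase and endonuclease that splices XBP1, had 564 normalized counts without and 436 with cGAMP in WT/HAQ, 766 and 539.6 in the WT/- clone, and 468 and 338 in HAQ/-. The cGAMP library was below the control library of its line in each case, with log2 folds of -0.37 [-0.54 to -0.20], -0.51 [-0.68 to -0.33] and -0.47 [-0.67 to -0.27]. ERN1 fell in the edgeR test at -0.45 ± 0.07, with an adjusted p of 0.0498, below control in 3 of 3 lines, and was the 1 member to pass it. The call was lost with DESeq2 (adjusted p 0.0502), without the line term (0.565), without WT/HAQ (0.139) and without WT/- (0.388), in a range over the alternatives from 0.0335 to 0.565. The fit without WT/- called 0 of all genes, so it says nothing of ERN1 in particular. EIF2AK3, the ER kinase of eIF2, had 654 normalized counts without and 406 with cGAMP in WT/HAQ, 733 and 608 in the WT/- clone, and 464 and 291 in HAQ/-. It was below control in 3 of 3 lines, within 1.5-fold in WT/-, and by the edgeR test -0.54 ± 0.11 with an adjusted p of 0.0713. ATF6, the sensor that is cut to release a transcription factor, had 944 to 1121 normalized counts over the 6 libraries, and the interval of its fold included 0 in each line.

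Chaperone transcripts were close to control. HSPA5 had 50290.4 normalized counts without and 52129 with cGAMP in WT/HAQ, 51481 and 56272 in the WT/- clone, and 54823 and 59998 in HAQ/-, or log2 folds of 0.05, 0.13 and 0.13. Its element is of the same kind as that of XBP1, whose log2 fold in WT/HAQ was 2.11. Across the 14 chaperones the log2 folds ran from -0.17 to 0.35 in WT/HAQ, from -0.14 to 0.40 in the WT/- clone and from -0.21 to 0.49 in HAQ/-. The upper ends belonged to PDIA4, a disulfide isomerase with 3061 and 3906 normalized counts in WT/HAQ, to DNAJB9, a J-domain partner of HSPA5 with 477 and 629 in WT/-, and to SDF2L1, an ER protein bound to J-domain chaperones, with 285 and 399.5 in HAQ/-. None of the 14 passed the edgeR test of cGAMP (3.23% of all genes did), with 1 (PDIA4) at an unadjusted p under 0.05 (25.2% of all genes) and 0 called by DESeq2 (8.96%). The summed level of the 14 was 143391.9 without and 147239 with cGAMP in WT/HAQ, 154795 and 165461 in the WT/- clone, and 152663 and 162320.4 in HAQ/-.

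Of the 5 genes of ERAD and translocation, SEL1L, the membrane partner of the ubiquitin ligase SYVN1, stood out. It had 1786 normalized counts without and 2582 with cGAMP in WT/HAQ, 1769 and 2703 in the WT/- clone, and 2109 and 2309.7 in HAQ/-. The log2 folds were 0.53 [0.45 to 0.61], 0.61 [0.52 to 0.70] and 0.13 [0.05 to 0.22]. Only that in WT/- passed 1.5-fold, and with total counts only it was 0.55 and did not. The edgeR test gave 0.42 ± 0.11 with an adjusted p of 0.102, above control in 3 of 3 lines. HERPUD1, an ER membrane protein that serves ERAD, had log2 folds of 0.04, 0.16 and -0.28, and EDEM1, which directs misfolded glycoproteins to degradation, had -0.03, -0.06 and 0.28. SYVN1 had -0.06, -0.16 and 0.09, and SEC61B, a subunit of the translocation channel, had 0.14, 0.38 and 0.01. None of the 5 passed the edgeR test, with 1 (SEL1L) at an unadjusted p under 0.05 and 0 called by DESeq2, beside 3.23%, 25.2% and 8.96% of all genes.

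Among the remaining ATF4 targets, SESN2 (sestrin 2), an inhibitor of mTORC1 signalling, had 544 normalized counts without and 293 with cGAMP in WT/HAQ, 407 and 282 in the WT/- clone, and 404 and 316 in HAQ/-. It was below control in 3 of 3 lines, by 1.5-fold or more in WT/HAQ and, with total counts only, in WT/- (-0.59, against -0.53 with TMM). The edgeR test gave -0.59 ± 0.13, with an adjusted p of 0.074 in a range over the alternatives from 0.00927 to 0.393. DDIT4 (REDD1), another mTORC1 inhibitor, had 670.0 and 569 in WT/HAQ, 1252 and 561 in the WT/- clone, and 464 and 430.2 in HAQ/-. The control library of WT/- stood above the rest and its cGAMP library was within their range, a log2 fold of -1.16, with an interval that starts at -1.32 and stays below 0. VLDLR had log2 folds of 0.55, 0.22 and 0.45, the pseudokinase TRIB3 -0.32, -0.18 and -0.10, and ASNS, the enzyme that makes asparagine, 0.04, 0.31 and 0.30. CHAC1 had 30.8 to 54.8 normalized counts, and the interval of its fold included 0 in each line.

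**Figure D2:**
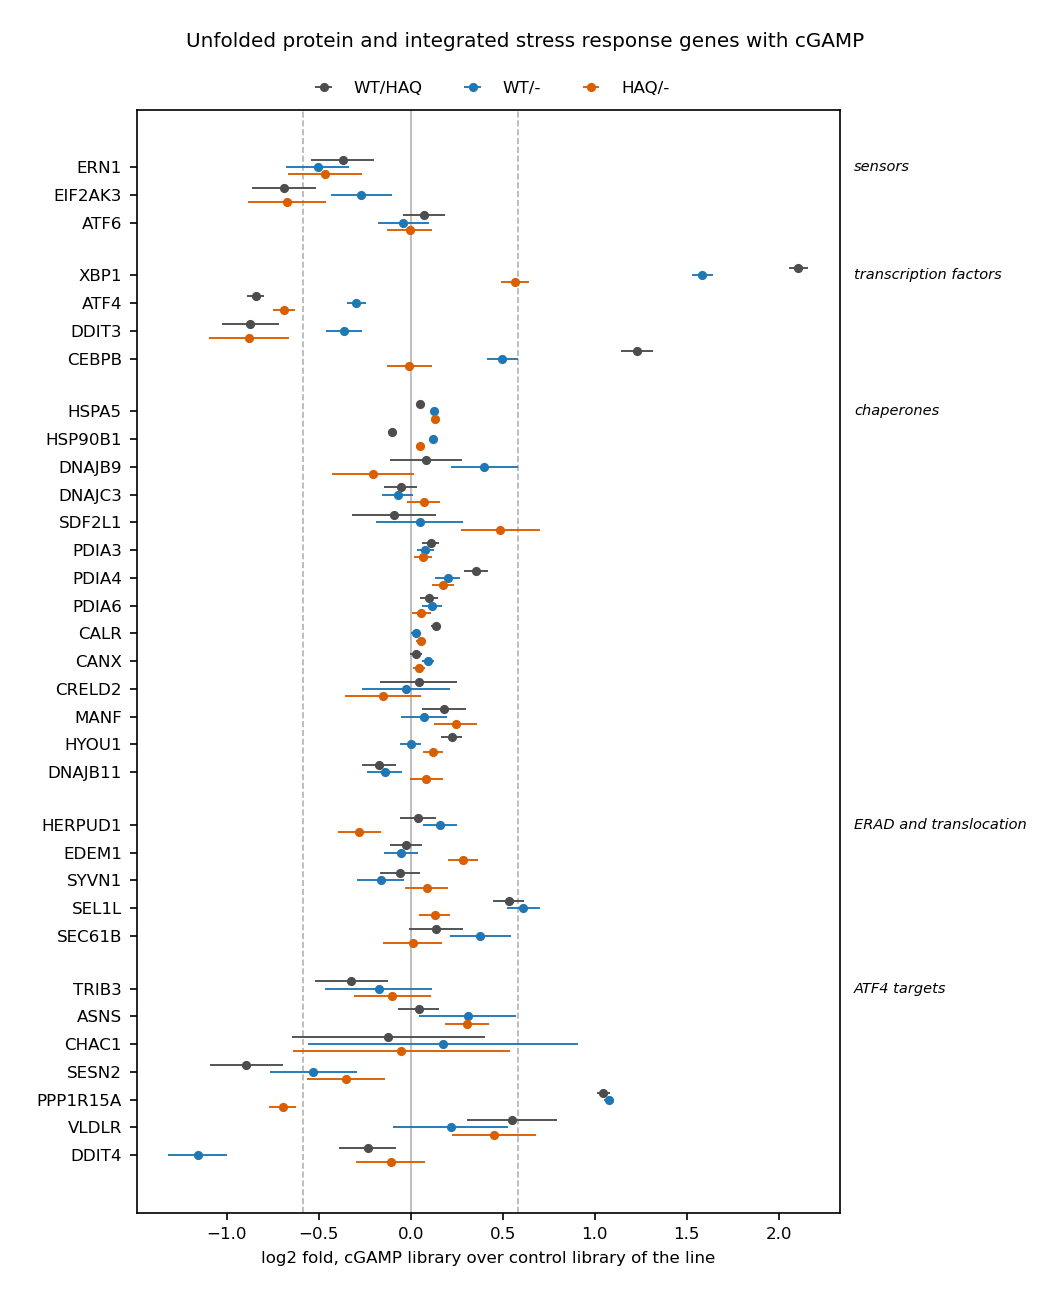
Log2 fold of cGAMP over control (horizontal axis) for the 33 members in each line, with bars for the 95% counting interval and dashed lines at 1.5-fold. XBP1 lies at 2.11, 1.58 and 0.57, and the 14 chaperones lie between -0.21 and 0.49.

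Counted over the 33 members in WT/HAQ, 3 were higher with cGAMP (XBP1, CEBPB and PPP1R15A; 12.8% of all genes) and 4 were lower (EIF2AK3, ATF4, DDIT3 and SESN2; 12.3% of all genes). In WT/- 3 were higher (XBP1, SEL1L and PPP1R15A; 11.9% of all genes) and 1 was lower (DDIT4; 8.77% of all genes). In HAQ/- 0 were higher (6.75% of all genes) and 4 were lower (EIF2AK3, ATF4, DDIT3 and PPP1R15A; 5.76% of all genes). The members' shares in WT/HAQ (9.09% higher, 12.1% lower) and in WT/- (9.09% and 3.03%) were near or below those of all genes, in an order that depended on the setting. With a mean count of at least 50, all genes had 9.23% lower in WT/HAQ and 8.65% higher in WT/-, below the members' shares. At that filter 9.94% were higher in WT/HAQ and 5.96% lower in WT/-, above the members' shares. With DESeq2 size factors 11.8% of all genes were lower in WT/HAQ, and at 2-fold 7.37% were higher there. In HAQ/- the 12.1% of members that were lower stood above the share of all genes and rests on 4 genes.

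Over the lines, the edgeR test called 0 members higher (2.27% of all genes) and 1 lower (0.959% of all genes), with 9 of 33 at an unadjusted p under 0.05 beside 25.2% of all genes. DESeq2 with the same terms called 5 (8.96% of all genes), XBP1 higher and EIF2AK3, ATF4, DDIT3 and SESN2 lower. Without HAQ/- edgeR called 9 (17.1% of all genes), namely XBP1, CEBPB, SEL1L and PPP1R15A higher and ERN1, EIF2AK3, ATF4, DDIT3 and SESN2 lower. It called 0 without WT/HAQ (1.23% of all genes) and 0 without WT/-, where it called 0 of all genes. Of all genes called, 70.3% were higher with edgeR and 57% with DESeq2.

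The next comparison set the control cells of the lines side by side. Without cGAMP, WT/- had more DDIT3, CEBPB, PPP1R15A and DDIT4 transcript than the parent and less ASNS, TRIB3 and CHAC1. HAQ/- had less DDIT3 and PPP1R15A than the parent. These comparisons share control libraries with each other and with the cGAMP folds, so their values are given side by side. The line tests given with them take the control and cGAMP libraries of each line together.

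ASNS (ENSG00000070669, chr7:97851677-97872542) had 1188 normalized counts in WT/HAQ control cells, 229.6 in the WT/- clone and 961 in HAQ/-. With cGAMP the counts were 1223, 284 and 1187, so both WT/- libraries lay far below the other 4. The WT/- control library was 5.17-fold below that of WT/HAQ, a log2 fold of -2.37 [-2.57 to -2.18]. In the edgeR line test, over 2 libraries a line, ASNS was lower in WT/- than in WT/HAQ, at -2.24 ± 0.11 on the log2 scale (adjusted p 0.00258, lower in 2 of 2 libraries). It was higher in HAQ/- than in WT/- by 2.06 ± 0.11 (adjusted p 0.00171, higher in 2 of 2 libraries). ASNS shares 2415 exon bases with a long noncoding RNA on the same strand, so the counts of the 2 genes depend on how reads were assigned.

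DDIT3 went the other way. Its control level was 2141 normalized counts in WT/-, against 892 in WT/HAQ and 493 in HAQ/-, and the WT/- cGAMP library, at 1664, was also above both of those. The log2 fold between control libraries was 1.26 [1.16 to 1.37] for WT/- and -0.86 for HAQ/-, each over WT/HAQ. In the edgeR line test DDIT3 in WT/- exceeded its WT/HAQ level by 1.52 ± 0.15 (adjusted p 0.012, higher in 2 of 2 libraries). It was lower in HAQ/- than in WT/-, at -2.37 ± 0.16 (adjusted p 0.00272, lower in 2 of 2 libraries). DDIT3 shares 355 exon bases with MARS1 on the opposite strand, and the strand setting of the counts is not stated. MARS1, a methionyl-tRNA synthetase named for this overlap, differed in the opposite direction in WT/- and little in HAQ/-, with 2436 normalized counts in WT/HAQ control cells, 1125.5 in the WT/- clone and 2266 in HAQ/-.

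TRIB3, which ATF4 and DDIT3 induce, had 427 normalized counts in WT/HAQ control cells, 228 in the WT/- clone and 373 in HAQ/-. Both WT/- libraries were below the other 4, and in the edgeR line test TRIB3 was lower in WT/- than in WT/HAQ, at -0.84 ± 0.11 (adjusted p 0.0216, lower in 2 of 2 libraries). CHAC1, at 54.8 in WT/HAQ and 30.8 in WT/- control cells, had a log2 fold of -0.83 [-1.44 to -0.23]. PPP1R15A ran from 4061 normalized counts in HAQ/- control cells through 9056 in WT/HAQ to 17702 in WT/-, log2 folds over WT/HAQ of -1.16 and 0.97. CEBPB followed the same order with 1062, 1367 and 2109, and so did DDIT4 with 464, 670.0 and 1252. ATF4 did not, since WT/HAQ was the highest of the control libraries at 9500.0, followed by WT/- at 7307 and HAQ/- at 6299.5.

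The sensors ERN1 and EIF2AK3 were lower in HAQ/- than in WT/- by 1.5-fold or more in control cells, with log2 folds of -0.71 and -0.66. ATF6 was within 0.14 log2 units of 0 in the comparisons between control libraries, at -0.14, -0.04 and 0.10. Of the chaperones, none differed by 1.5-fold between control libraries. Their log2 folds ran from -0.05 to 0.39 for WT/- over WT/HAQ, from -0.08 to 0.37 for HAQ/- over WT/HAQ and from -0.47 to 0.28 for HAQ/- over WT/-. The lower end of the last range was DNAJB9, with 345 normalized counts in HAQ/- and 477 in WT/-. HERPUD1, with 1302 in HAQ/- and 1994 in WT/-, had a log2 fold of -0.62 [-0.71 to -0.52].

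**Figure D3:**
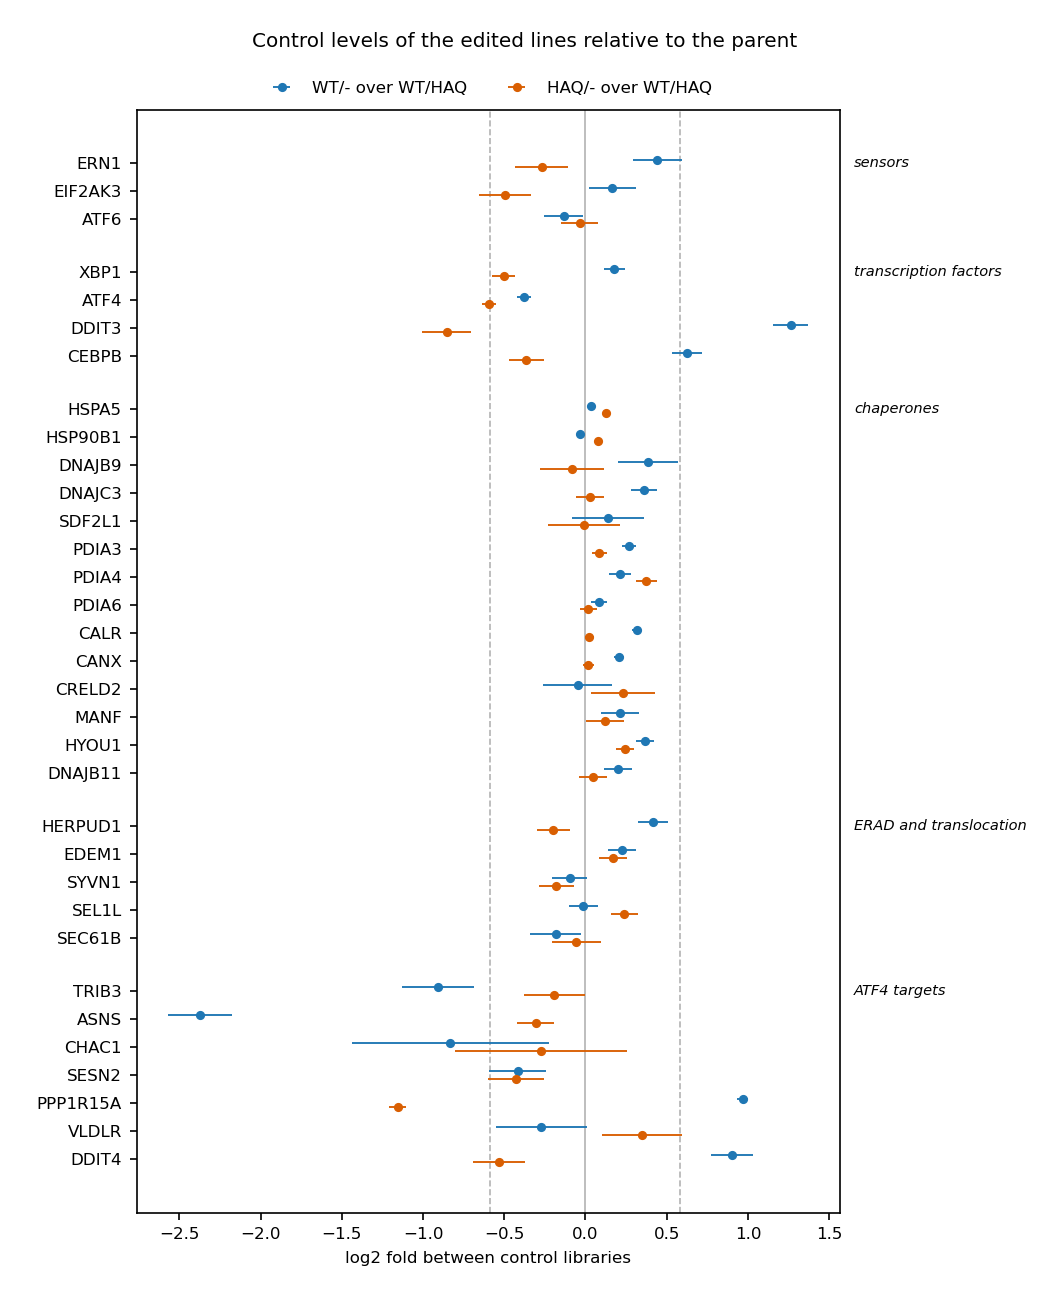
Log2 fold of the WT/- and HAQ/- control libraries over the WT/HAQ control library (horizontal axis) for the 33 members, with bars for the 95% counting interval and dashed lines at 1.5-fold. In WT/-, ASNS lies at -2.37 and DDIT3 at 1.26, and in HAQ/- PPP1R15A lies at -1.16.

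Between control libraries, 4 of 33 members were higher in WT/- than in WT/HAQ (DDIT3, CEBPB, PPP1R15A and DDIT4; 13.0% of all genes) and 3 were lower (TRIB3, ASNS and CHAC1; 9.87% of all genes). In HAQ/- 0 were higher than in WT/HAQ (7.37% of all genes) and 3 were lower (ATF4, DDIT3 and PPP1R15A; 8.59% of all genes). ATF4 was just past 1.5-fold at -0.59, and within it with DESeq2 size factors (-0.58), total counts only (-0.52) and a mean count of at least 1 (-0.58) or 50 (-0.57). Between HAQ/- and WT/-, 3 were higher in HAQ/- (TRIB3, ASNS and VLDLR; 11.6% of all genes). In the same comparison 8 were lower, namely ERN1, EIF2AK3, XBP1, DDIT3, CEBPB, HERPUD1, PPP1R15A and DDIT4 (15.3% of all genes). These 8 were 24.2% of the members, and with total counts only 5 were lower (12.5% of all genes), without EIF2AK3, XBP1 and HERPUD1.

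The edgeR line test called 1 member higher in WT/- than in WT/HAQ (DDIT3; 4.99% of all genes) and 2 lower (TRIB3 and ASNS; 3.81% of all genes), with 14 of 33 at an unadjusted p under 0.05 beside 28.8% of all genes. Fitted without HAQ/-, it called 7 (17.0% of all genes), with DNAJB9, DNAJC3, HERPUD1 and PPP1R15A added as higher. Of all genes called in this test, 56.7% were higher in WT/- with TMM scaling and 47.3% with total counts only. Between HAQ/- and WT/HAQ edgeR called 0 higher (0.377% of all genes) and 0 lower (0.846% of all genes), with 10 at an unadjusted p under 0.05 beside 18.7% of all genes. There DESeq2 called 3 lower (2.51% of all genes), XBP1, DDIT3 and CEBPB. These calls also draw on the cGAMP libraries. Between the HAQ/- and WT/HAQ control libraries alone, XBP1 (-0.50) and CEBPB (-0.365) were within 1.5-fold, and DDIT3 (-0.86) was not. Of the 14 chaperones, edgeR and DESeq2 called 0 in either comparison with WT/HAQ, with 6 at an unadjusted edgeR p under 0.05 for WT/- and 1 for HAQ/-. Of all genes, edgeR called 8.81% for WT/- and 1.22% for HAQ/-, and DESeq2 8.70% and 3.72%.

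Between HAQ/- and WT/- edgeR called 3 members higher (TRIB3, ASNS and VLDLR; 7.94% of all genes) and 7 lower (11.1% of all genes), with 16 at an unadjusted p under 0.05 beside 36.2% of all genes. The 7 were ERN1, EIF2AK3, DDIT3, CEBPB, DNAJB9, HERPUD1 and PPP1R15A. DNAJB9 was the 1 chaperone of the 14 called, at -0.77 ± 0.16 (adjusted p 0.034), with -0.47 between control libraries alone. The largest of these differences was that of PPP1R15A, at -2.92 ± 0.49 (adjusted p 0.0193, lower in 2 of 2 libraries). That value joins the control and cGAMP libraries of each line, although PPP1R15A moved in opposite directions with cGAMP. Its cGAMP log2 fold was 1.08 in WT/- and -0.70 in HAQ/-, and between control libraries alone the HAQ/- fold over WT/- was -2.12. For CEBPB, at -1.22 ± 0.29, the adjusted p was 0.0438, and it was 0.052 with total counts only, in a range from 0.000922 to 0.052. Of all genes that passed, 41.7% were higher in HAQ/- with TMM scaling and 62.3% with total counts only.

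Chaperones and ATF4 targets were then compared as groups by the median log2 fold of each, as a description, with 14 and 9 genes. DDIT3 and CEBPB count both as transcription factors and as ATF4 targets. With cGAMP, the chaperone median was 0.07 in WT/HAQ, 0.08 in the WT/- clone and 0.07 in HAQ/-, and that of the ATF4 targets was -0.12, 0.17 and -0.10. In WT/HAQ and WT/- the ATF4 target median was the fold of CHAC1 itself, whose interval included 0. The medians of all genes were -0.01, -0.00 and -0.01. The groups differed in width more than in centre: the chaperones stayed within 0.49 log2 units of 0, and the ATF4 targets ran from -0.89 to 1.23 in WT/HAQ, from -1.16 to 1.08 in the WT/- clone and from -0.88 to 0.45 in HAQ/-.

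Between control libraries, the chaperone median was 0.21 for WT/- over WT/HAQ, 0.06 for HAQ/- over WT/HAQ and -0.14 for HAQ/- over WT/-. The ATF4 targets had a median of -0.27 for WT/- over WT/HAQ within a range from -2.37 to 1.26, and this median was 0.18 when CHAC1 was left out by a higher count filter. For HAQ/- over WT/HAQ the median of the ATF4 targets minus that of the chaperones was -0.42, and the ATF4 targets ran from -1.16 to 0.35. For HAQ/- over WT/- their median was -0.01 within a range from -2.12 to 2.06, and it was 0.09 with total counts only and -0.49 without CHAC1. Of the 9 ATF4 targets, ASNS was the lowest and DDIT3 the highest in WT/- relative to WT/HAQ control cells.

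**Figure D4:**
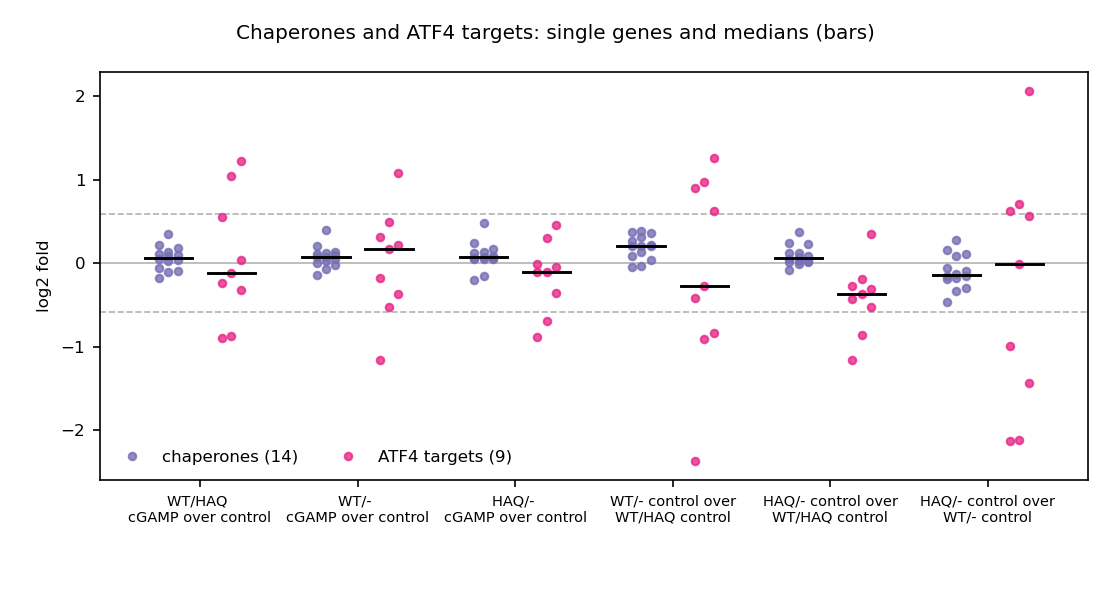
Log2 folds (vertical axis) of the 14 chaperones and the 9 ATF4 targets in 6 comparisons, a point for each gene and a bar for the median. The ATF4 targets range from -2.37 to 1.26 between the WT/- and WT/HAQ control libraries, where the chaperones range from -0.05 to 0.39.

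Other genes of these pathways were read from lists of the same kind. These lists too were chosen with earlier results of these data known, so their counts beside the shares of all genes are a description. Of the 43 other genes of the ATF4 and amino acid response, 42 were analysed, and CBS, with 2 entries in the table, was not. In WT/- against WT/HAQ, edgeR called 17 of the 42 lower and 2 higher, beside 3.81% and 4.99% of all genes. Their median log2 fold change was -0.62, beside 0.01 for all genes. In HAQ/- against WT/- it called 20 higher and 7 lower, beside 7.94% and 11.1% of all genes, with a median of 0.42 beside -0.02. In HAQ/- against WT/HAQ it called 0 higher and 2 lower, beside 0.377% and 0.846% of all genes, with 17 at an unadjusted p under 0.05 (18.7% of all genes), and DESeq2 called 1 higher and 6 lower (3.72% of all genes in either direction). The genes lower in WT/- were placed in groups that were formed after their values were seen. They were 6 of 11 aminoacyl-tRNA synthetases, 4 of 6 enzymes of serine and one-carbon metabolism, 4 of 8 amino acid transporters and 3 of the other 17.

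Examples, also chosen after their values were seen, show the size of the difference. PSAT1, an enzyme of serine synthesis, had 3347 normalized counts without and 3425 with cGAMP in WT/HAQ, 641 and 638 in the WT/- clone, and 3087 and 3643 in HAQ/-. Both WT/- libraries were far below the other 4, and the edgeR line test against WT/HAQ gave -2.40 ± 0.10 (adjusted p 0.0023, lower in 2 of 2 libraries). PHGDH, which starts the same pathway, had 1043 and 1177 in WT/HAQ, 123 and 183 in the WT/- clone, and 603 and 757 in HAQ/-, with -2.88 ± 0.13 (adjusted p 0.00231, lower in 2 of 2 libraries). The glycine transporter SLC6A9 had 312 and 328 in WT/HAQ, 26.1 and 42.7 in the WT/- clone, and 105 and 112 in HAQ/-, and was lower than in WT/HAQ, at -3.25 ± 0.21 in WT/- (adjusted p 0.00465) and at -1.56 ± 0.18 in HAQ/- (adjusted p 0.0359), in 2 of 2 libraries each. GDF15, a secreted stress cytokine, had 225 and 176 in WT/HAQ, 1897 and 1066 in the WT/- clone, and 94.2 and 69.0 in HAQ/-. Its WT/- level exceeded that of WT/HAQ by 2.85 ± 0.15 (adjusted p 0.00275, higher in 2 of 2 libraries), the same direction as DDIT3 and opposite to ASNS.

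**Figure D5:**
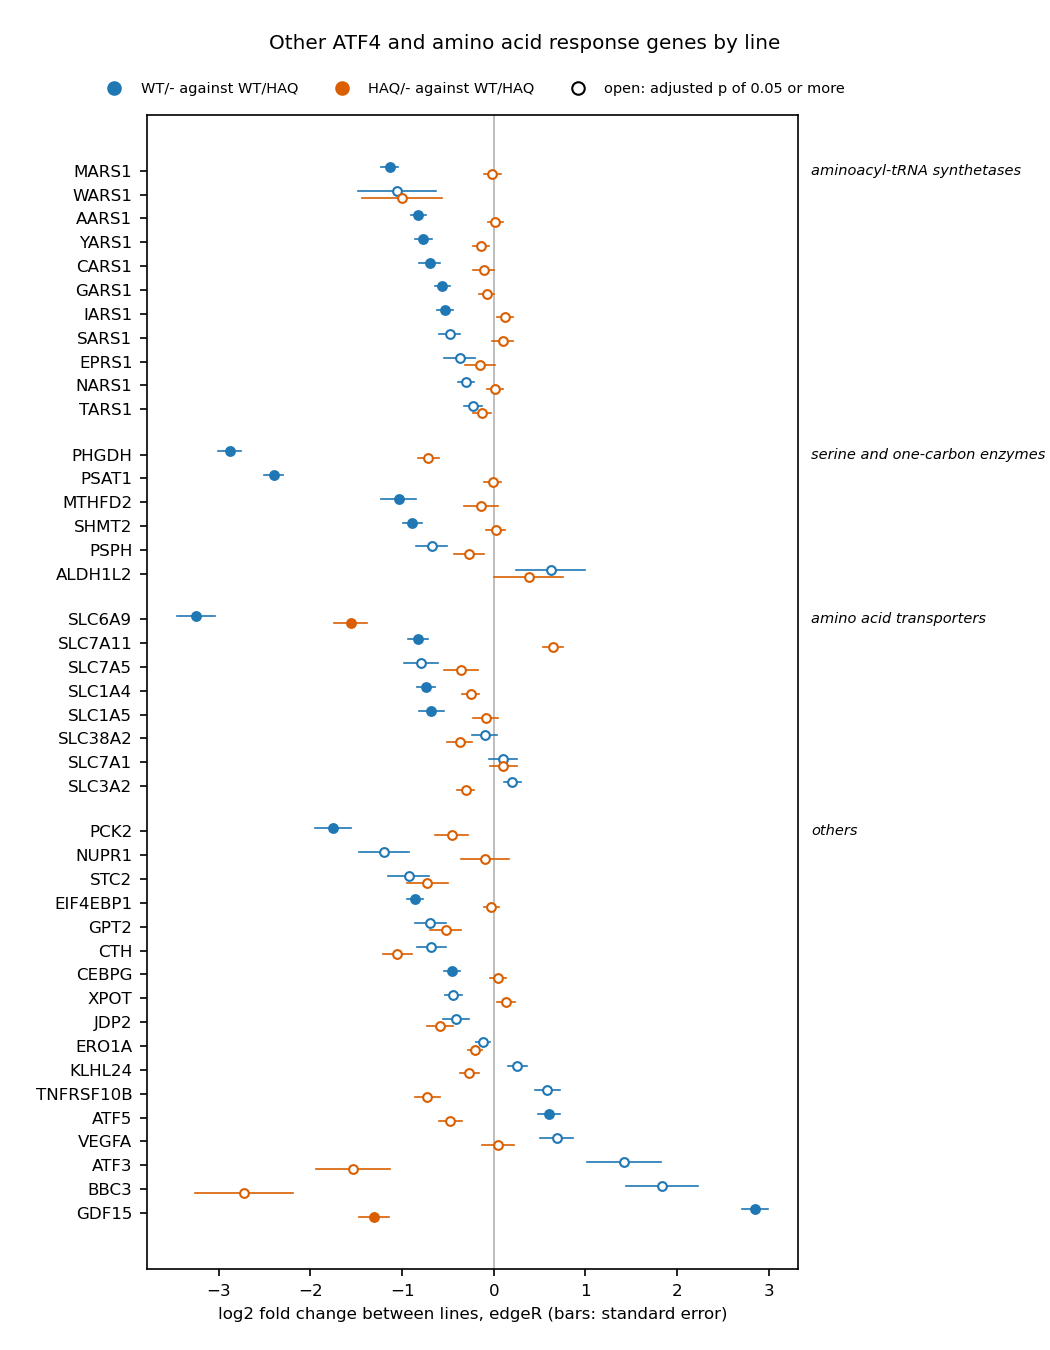
Log2 fold change and standard error by edgeR (horizontal axis) of WT/- and HAQ/- against WT/HAQ for 42 other genes of the ATF4 and amino acid response, with filled points at an adjusted p under 0.05. In WT/-, SLC6A9 lies at -3.25 and GDF15 at 2.85.

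With cGAMP, edgeR called 2 of these 42 genes higher and 0 lower, beside 2.27% and 0.959% of all genes, with 11 at an unadjusted p under 0.05 (25.2% of all genes), and DESeq2 called 2 higher and 1 lower (5.10% and 3.85% of all genes). The genes called by edgeR were WARS1, the tryptophanyl-tRNA synthetase, and BBC3 (PUMA), a death-promoting BCL2 family member that DDIT3 can induce. WARS1 had 4315 normalized counts without and 52899.7 with cGAMP in WT/HAQ, 2188 and 24440.5 in the WT/- clone, and 3741 and 13892 in HAQ/-, and rose by 3.01 ± 0.38 on the log2 scale (adjusted p 0.0272, above control in 3 of 3 lines). BBC3 had 55.7 and 413 in WT/HAQ, 258 and 1302 in the WT/- clone, and 23.6 and 31.7 in HAQ/-, and rose by 2.25 ± 0.37 (adjusted p 0.0491). In HAQ/- its 27 and 29 counts gave a log2 fold of 0.43 [-0.32 to 1.18], which includes 0. Both calls were lost without WT/HAQ (adjusted p 0.0808 for WARS1 and 0.159 for BBC3) and without the line term (0.0966 and 0.584), and that of BBC3 with total counts only (0.0541). WARS1 is also known as an interferon-induced gene.

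Of 13 kinases, subunits and phosphatase genes of eIF2 and eIF2B, edgeR called 1 higher and 1 lower with cGAMP, beside 2.27% and 0.959% of all genes. EIF2AK2 (PKR), the eIF2 kinase that senses double-stranded RNA and is itself interferon-induced, had 1380.6 normalized counts without and 6134.5 with cGAMP in WT/HAQ, 1608 and 5715 in the WT/- clone, and 1627 and 4428 in HAQ/-. It rose by 1.81 ± 0.15 (adjusted p 0.00925, above control in 3 of 3 lines), whereas the ER kinase EIF2AK3 was below control in each line, within 1.5-fold in WT/-. PPP1R15B, the constitutive counterpart of PPP1R15A, had 1574 and 898 in WT/HAQ, 3135 and 1967 in the WT/- clone, and 1123 and 842 in HAQ/-. It fell at -0.63 ± 0.10 (adjusted p 0.0426, below control in 3 of 3 lines), a call lost without WT/HAQ (0.131) and without the line term (0.717). In the line tests of these 13, edgeR called 1 higher and 1 lower in WT/- against WT/HAQ (4.99% and 3.81% of all genes) and 1 lower in HAQ/- against WT/- (11.1% of all genes). In HAQ/- against WT/HAQ it called 0 (1.22% of all genes), with 2 at an unadjusted p under 0.05 (18.7% of all genes) and 0 by DESeq2 (3.72% of all genes).

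Of 35 other genes of ER folding and ERAD, edgeR called 0 with cGAMP (3.23% of all genes), with 6 at an unadjusted p under 0.05 (25.2% of all genes) and 0 by DESeq2 (8.96% of all genes). The ends of the list were the disulfide isomerase PDIA5 at 0.46 (adjusted p 0.13, above control in 3 of 3 lines) and the coat protein SEC24D at 0.39 (adjusted p 0.117, above control in 3 of 3 lines). At the other end were the ERAD channel protein DERL3 at -0.47 (adjusted p 0.324) and the prolyl isomerase FKBP14 at -0.18 (adjusted p 0.418, below control in 3 of 3 lines). DERL3 had 13 to 65 counts a library and intervals that include 0 in each line. It shares 2923 of its 3796 exon bases with SMARCB1 on the opposite strand, a larger part than DDIT3 shares, with the strand setting not stated. In the line tests edgeR called 2 higher and 1 lower in WT/- against WT/HAQ (4.99% and 3.81% of all genes), and 5 higher and 2 lower in HAQ/- against WT/- (7.94% and 11.1% of all genes). In HAQ/- against WT/HAQ it called 0 (1.22% of all genes), with 3 at an unadjusted p under 0.05 (18.7% of all genes) and 0 by DESeq2 (3.72% of all genes).

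Of 16 cytosolic heat shock genes, which lie outside the ER response, edgeR called 1 lower and 1 higher with cGAMP, beside 0.959% and 2.27% of all genes. The co-chaperone BAG3 had 1309.9 normalized counts without and 822 with cGAMP in WT/HAQ, 1387 and 940.3 in the WT/- clone, and 1283 and 957 in HAQ/-, and fell at -0.55 ± 0.08 (adjusted p 0.0353, below control in 3 of 3 lines). DNAJA1, a J-domain partner of HSP70, rose by 0.40 ± 0.07 (adjusted p 0.0484, above control in 3 of 3 lines). Both calls were lost without WT/HAQ (0.131 for BAG3 and 0.184 for DNAJA1) and without the line term (0.127 and 0.347), and that of DNAJA1 with total counts only (0.0577). In the line tests edgeR called 2 higher in WT/- against WT/HAQ (4.99% of all genes) and 5 lower in HAQ/- against WT/- (11.1% of all genes). In HAQ/- against WT/HAQ it called 0 (1.22% of all genes), with 6 at an unadjusted p under 0.05 (18.7% of all genes) and 0 by DESeq2 (3.72% of all genes).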

How the data were processed

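RNA-seq of 6 SKOV3 libraries was used, 1 for each condition. The authors deposited expected counts per Ensembl gene, which are estimated counts without normalization. The submitters' processing notes name STAR, RSEM and GRCh38 (hg38), with versions not given in the sources used here, and the annotation and the strand setting are not given. Values were rounded to whole counts. Of the values above 0, 79.9% to 81.1% per library were whole as deposited, by exact equality. Genes were kept at a mean count of 10 or more and scaled by TMM (edgeR 4.0.16, limma 3.58.1, R 4.3.3). For folds between 2 libraries, counts under 3 were set to 3. The tests were the edgeR quasi-likelihood F test with terms for line and treatment, adjusted by Benjamini-Hochberg at 0.05. The line term was tested for each pair of lines.

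Alternatives were DESeq2 1.42.0 (size factors, and its own test), total counts only, thinning all libraries to the smallest, a floor raised to 10, a prior count of 2, a mean count of at least 1 or 50, a fold of 1.2 or 2, no line term, and leaving out each line. The steps were tested on simulated data. Python 3.11.15, numpy 2.4.6, pandas 2.3.3 and matplotlib 3.10.9 were used for the rest.

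Members and lists were chosen with earlier results of these data known. The named genes were all 33 members, STING1 and the markers, of which 1 is left out of the text. Of each list of other pathway genes, up to 4 genes with an adjusted p under 0.05 in the cGAMP test were named, or else the 2 with the highest and the 2 with the lowest log2 fold change. Genes outside this rule were chosen after seeing their values, and the text says so. MARS1 was named for its overlap with DDIT3. Positions, exon overlaps and lengths are from GENCODE release 44. Promoter windows are from RefSeq, and motifs were matched exactly on both strands, over windows of 300 bases.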

Additional observations from a re-analysis of the deposited data

Results flagged for a closer look

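PPP1R15A had a log2 fold with cGAMP of 1.05 in the WT/HAQ parent, 1.08 in the WT/- clone and -0.70 in the HAQ/- clone. It is singled out because the lines with a WT allele of STING1 moved up and HAQ/- moved down, with counting intervals on opposite sides of 0. The difference between the lines was not tested: each line has 1 library per treatment, and genotype and clone cannot be told apart.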

How the results depend on the processing

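None of the results changed to the opposite called direction under the alternatives tried, and of 1380 values of single-gene folds over genes, comparisons and alternatives, 53 moved by more than the counting interval. Of the single-gene tests of members, 17 passed the threshold under some alternative alone and 2 (ERN1 with cGAMP, CEBPB in HAQ/- against WT/-) lost it under some alternative. Outside the members, WARS1, BBC3, PPP1R15B, BAG3 and DNAJA1 also lost their cGAMP calls under some alternatives, as given with those genes. Alternatives for the list of other ATF4 and amino acid response genes were added after seeing the data. Total counts only gave 2 members lower with cGAMP in WT/- (DDIT4 and SESN2; 10.3% of all genes), 5 members lower in HAQ/- than in WT/- control cells (12.5%), chaperone medians of 0.13 (HAQ/- over WT/HAQ) and -0.04 (HAQ/- over WT/-), and, in the amino acid list, 1 higher in WT/- and 1 lower in HAQ/-, each against WT/HAQ (3.84% and 0.701% of all genes). A mean count of at least 50, which leaves out CHAC1, gave ATF4 target medians of 0.18 (WT/- over WT/HAQ) and -0.49 (HAQ/- over WT/-). A fold of 1.2 in place of 1.5 gave 6 members higher with cGAMP in WT/HAQ (24.2% of all genes), 7 higher and 6 lower in WT/- (23.0% and 22.4%), and 5 higher and 7 lower in HAQ/- (15.4% and 17.2%). Between control libraries it gave 11 higher and 6 lower for WT/- over WT/HAQ (27.4% and 24.8%), 2 and 11 for HAQ/- over WT/HAQ (18.9% and 21.0%), and 5 higher for HAQ/- over WT/- (26.4%). A fold of 2 gave 0 members lower with cGAMP in WT/HAQ (5.36%) and 0 in HAQ/- (1.94%), and between control libraries 1 higher and 1 lower for WT/- over WT/HAQ (5.71% and 4.24%), 1 lower for HAQ/- over WT/HAQ (3.87%), and 1 higher and 3 lower for HAQ/- over WT/- (5.03% and 7.60%). In the cGAMP test DESeq2 called 5 members (8.96% of all genes), no line term 0 (0.403%), a mean count of at least 1 called 6 (4.78%), and leaving out each line called 0 to 9 (0 to 17.1%). In the line tests, WT/- against WT/HAQ without HAQ/- called 7 members (17.0% of all genes), and HAQ/- against WT/HAQ with DESeq2 called 3 (3.72%). In the amino acid list, DESeq2 called 5 (5.26% of all genes), a mean count of at least 1 called 4 (3.77%) and leaving out HAQ/- called 6 (9.90%) higher in WT/- than in WT/HAQ, beside 2 (4.99%) in the reported test. For HAQ/- against WT/HAQ, DESeq2 called 1 higher and 6 lower (3.72% in either direction), a mean count of at least 1 called 1 and 4 (0.528% and 1.23%), and leaving out WT/- called 0 lower. The fits without WT/- called 0 of all genes and say nothing of these lists. The 17 genes lower in WT/- became 17 to 25 (3.14% to 7.09% of all genes), and the 20 higher in HAQ/- than in WT/- became 18 to 21 (5.78% to 13.6%). A lower fold admits more genes and a higher one fewer by construction, and otherwise the cause was not tested. Depth limits CHAC1, with 26 to 62 counts a library.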
